A study of Homo sapiens with 18 samples.

Results

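The 49 genes described here build the machinery that copies DNA, or set the moment at which a cell leaves G1 and starts to copy. They were taken by name, from a list drawn up with earlier results of these data known. By role they are 11 genes of origin licensing, 6 of helicase activation, 7 of the DNA polymerases and primase, 9 of the sliding clamp, its loader and Okazaki fragment processing, 4 of nucleotide synthesis, 4 of chromatin copying, 6 of the E2F, cyclin E and CDC25A group and 2 of fork protection. All 49 were found by Ensembl identifier among the 61806 genes listed. All 49 also passed the filter on low values, as did 18537 genes in all.

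RNA was sequenced from LoVo and DLD-1, a pair of established human colorectal cancer cell lines. Under each line label there were 3 groups of 3 libraries, 18 libraries in all: cells of the genotype EV without treatment, cells of the genotype LIN28B overexpressed without treatment, and cells of the latter genotype given 5 µM alpelisib. The label EV is not spelled out. How LIN28B was introduced, whether the cells were a pool or 1 clone, the time under alpelisib and any vehicle are not given in the sources used here, and EV cells given alpelisib were not analysed here. The labels do not say that replicates came from separate cultures, so every p-value measures the spread between these libraries only, which may be technical. Values are TPM, a length-corrected share of all transcripts, in the order replicate 1 to 3. Changes are on the log2(TPM + 1) scale, which understates the change of low genes, and are given ± standard error from limma. A gene "rose" or "fell" where limma's p, adjusted over all 18537 genes by Benjamini-Hochberg, was under 0.05. Sequencing depth is unknown, because TPM keeps none.

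In G1 the origin recognition complex, CDC6 and CDT1 load the MCM helicase on DNA, a step called licensing, which geminin blocks once copying has begun. At the start of S phase MCM10, CDC45 and the GINS complex turn the helicase on, and DNA polymerases alpha, delta and epsilon then copy the strands behind it. The timing is set largely by the retinoblastoma protein: when cyclin D and cyclin E kinases phosphorylate it, E2F factors are freed and transcribe many of these genes, so their messages are high in cycling cells and low in resting ones. In colon epithelium the cycling cells lie in the lower crypt. LIN28B binds RNA and keeps precursors of the let-7 microRNAs from maturing. Alpelisib inhibits the alpha catalytic subunit of PI3 kinase, which signals to AKT and mTOR.

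LIN28B matched the labels: 3.66 to 4.91 TPM in LoVo EV and 674 to 706 TPM in untreated LoVo-labelled LIN28B cells, and 1.17 to 2.74 against 408 to 493 TPM in DLD-1. With alpelisib it lay at 146 to 160 TPM under the LoVo label and 139 to 149.7 TPM in DLD-1. The LoVo-labelled LIN28B libraries stood apart from the line they are named for: over all genes listed, the log2(TPM + 1) values of the untreated ones correlated at Pearson r = 0.981 to 0.983 with DLD-1 EV and at 0.952 to 0.964 with LoVo EV. For the alpelisib-treated ones the values were 0.968 to 0.977 with DLD-1 EV, 0.956 to 0.9625 with LoVo EV and 0.972 to 0.981 with their own untreated group. With the DLD-1 LIN28B libraries of the same treatment, r was 0.978 to 0.982 for the treated ones and 0.9825 to 0.984 for the untreated ones. CDKN2A, which encodes the G1 kinase inhibitor p16, had a mean of 26.9 ± 4.40 TPM (SD, n = 3) in LoVo EV, 3.12 ± 0.997 TPM in LoVo-labelled LIN28B and 1.67 ± 0.229 TPM in DLD-1 EV. The effect of LIN28B under that label and whatever else separates these libraries from LoVo EV therefore cannot be told apart. The log2 change with alpelisib there uses no LoVo EV library, but its p-values rest on a spread estimated from all 18 libraries, LoVo EV among them. A fit of only the groups compared called 35 members lower there, against 41 in the main fit. The share of TPM from mitochondrial transcripts was 24.02% and 23.06% in LoVo EV replicates 1 and 2, 14.5% in replicate 3 and 7.24% to 15.8% elsewhere. Of 10 colon epithelium markers 9 were above 1 TPM in every group, the exception being CDX1, and their sum was lowest in LoVo EV (7149 to 8145 TPM, against up to 15410 TPM elsewhere). The 12 markers of other cell types summed to 5.55 to 25.8 TPM, highest in LoVo EV, with COL1A2 at 0 in every library and CD3E at 0 in every group but the alpelisib-treated ones, where it reached 0.13 and 0.115 TPM. Strand use in the counting is not given in the sources used here, so values of members that overlap another gene with a mean above 1 TPM on the opposite strand (MCM2, MCM7, GINS2, GINS3, GINS4, PRIM1, RFC4, RFC5, FEN1, TYMS, CHAF1A and CCNE2) or on the same strand (PRIM1, FEN1 and CHAF1B) are uncertain.

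Promoters of 41 of the 49 genes were matched in RefSeq (GRCh38.p14, 250 bases before the start of the gene to 50 after). Letters that E2F factors are known to bind (TTTCCCGC, TTTCGCGC, TTTGCCGC or TTTGGCGC, on either strand; the spellings can overlap on opposite strands) stood in 22 of these 41, or 53.7%, against 3.33% of all 27305 promoters and 5.27% of the 11757 promoters of tested genes. The 160 bases printed here are from genes that the results turn on, each in its gene's direction with those letters in capitals. PCNA passed the test of a different alpelisib effect between the line labels, POLE was the only member that rose with alpelisib on the TPM scale, and E2F1 encodes one of the factors. CDC25A carries the letters 1 time and MCM6 4 times, in 2 overlapping pairs. RFC5, which fell with alpelisib under both labels, has none. A match is a description of letters and not a bound site. PCNA is at chr20:5126623-5126782 (minus strand), MCM6 at chr2:135876444-135876603 (minus), POLE at chr12:132687343-132687502 (minus), E2F1 at chr20:33686386-33686545 (minus), CDC25A at chr3:48188418-48188577 (minus) and RFC5 at chr12:118016543-118016702 (plus).
PCNA: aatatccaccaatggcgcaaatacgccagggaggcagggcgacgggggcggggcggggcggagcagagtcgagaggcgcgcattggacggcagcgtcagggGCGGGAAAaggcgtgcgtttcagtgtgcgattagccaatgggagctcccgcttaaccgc
MCM6: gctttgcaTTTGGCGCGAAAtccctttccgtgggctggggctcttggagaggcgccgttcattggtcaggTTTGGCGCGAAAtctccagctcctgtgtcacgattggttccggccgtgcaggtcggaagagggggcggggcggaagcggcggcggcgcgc
POLE: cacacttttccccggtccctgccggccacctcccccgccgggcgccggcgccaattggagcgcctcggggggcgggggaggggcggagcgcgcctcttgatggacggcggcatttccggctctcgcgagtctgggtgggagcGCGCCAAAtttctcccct
E2F1: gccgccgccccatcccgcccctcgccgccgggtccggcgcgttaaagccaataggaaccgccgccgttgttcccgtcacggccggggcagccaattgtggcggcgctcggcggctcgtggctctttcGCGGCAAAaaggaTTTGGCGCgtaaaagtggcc
CDC25A: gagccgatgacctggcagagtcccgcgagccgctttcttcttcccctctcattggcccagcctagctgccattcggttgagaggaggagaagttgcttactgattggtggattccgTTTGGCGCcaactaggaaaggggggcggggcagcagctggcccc
RFC5: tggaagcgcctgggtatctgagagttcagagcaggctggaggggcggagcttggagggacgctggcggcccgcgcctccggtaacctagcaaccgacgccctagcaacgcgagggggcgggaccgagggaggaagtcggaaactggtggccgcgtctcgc

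With LIN28B, 13 of the 49 genes rose in DLD-1 and 43 under the LoVo label. In DLD-1 none fell, and the 13 of 49 (26.5%) stood against 1.21% of all genes tested that rose. Their median log2 change was 0.42, against 0.0177 over all genes, and 48 of 49 changes were above 0. Without the adjustment 31 of the 49 had a limma p under 0.05 with a higher level and none with a lower one. Over all 18537 genes those counts were 1514 and 1130. The count in DLD-1 was sensitive to single libraries: 4 of the 13 (ORC6, GINS2, E2F2 and CLSPN) held with each of the 18 libraries left out in turn, and 9 (MCM3, POLA2, POLD1, POLD3, LIG1, DNA2, TK1, UHRF1 and CDC25A) did not. The count fell to 4 without DLD-1 EV replicate 1 or 3 or DLD-1 LIN28B replicate 1 or 2, 7 without DLD-1 EV replicate 2 and 6 without DLD-1 LIN28B replicate 3. For the LoVo label the 43 of 49 (87.8%), with none that fell, stood against 40.3% of all genes tested that rose, and the median was 0.95 against 0.256 over all genes. Without the adjustment 44 had a higher and none a lower level at a limma p under 0.05, where the counts over all 18537 genes were 7913 and 3395. The rise of POLE was lost without LoVo EV replicate 1 or 2, or LoVo-labelled LIN28B replicate 2 or 3 (adjusted p 0.0502 to 0.21), and that of FEN1 without LoVo EV replicate 1, or LoVo-labelled LIN28B replicate 1 (adjusted p 0.0538 to 0.0561).

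With alpelisib, 10 of the 49 genes fell in DLD-1 LIN28B cells and 41 in LoVo-labelled LIN28B cells, a contrast of counts that is not itself a test and whose test by gene is given further on. In DLD-1 the 10 stood against 21.9% of all genes that fell, and 1 (POLE) rose, against 9.05% of all genes, so the share that fell (20.4%) was close to the background. For the LoVo label 41 of 49 (83.7%) fell and none rose (none had a higher level at an unadjusted limma p under 0.05 either), against 24.6% of all genes that fell. Of all 18537 genes 15.1% rose there, and 3507 had a higher level at that unadjusted p. The medians were -0.21 and -0.68, against -0.0923 and -0.0574 over all genes. The summed TPM of the 49 genes was 2330 to 2576 in untreated DLD-1 LIN28B cells and 1960.0 to 2213 with alpelisib, and 2388 to 2763 and then 1226 to 1516 under the LoVo label, with no overlap in either. Replicate 3 of the LoVo-labelled alpelisib libraries was the lowest of its group for 34 of the 49 genes. In DLD-1, replicate 3 of the alpelisib libraries was the highest of its group for 31. Mitochondrial transcripts made up 12.2% of TPM in the first, against 9.27% and 8.22% in replicates 1 and 2 of its group. In the second they made up 10.6%, against 15.8% and 14.8%. LIN28B itself was lower with alpelisib under both labels, as given above, and its part in these changes was not tested. In bulk RNA, fewer cells in S phase and less of a transcript per cell cannot be told apart.

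Rescaling by median-of-ratios in place of the TPM total moved the median of all genes by 0.133 for alpelisib in DLD-1 and 0.140 under the LoVo label, and by -0.343 for LIN28B under the LoVo label. On that scale the members that limma called for alpelisib in DLD-1 were 8 higher (MCM7, GINS2, POLE, PCNA, RPA2, FEN1, UHRF1 and SLBP) and 7 lower (ORC1, GINS1, POLA2, RFC5, DNA2, RRM1 and RRM2), and under the LoVo label 33 lower and none higher. The alpelisib median of all genes on it was 0.041 in DLD-1 and 0.082 under the LoVo label. Shares of all genes called on that scale were not worked out, so counts on it, here and below, have no background beside them.

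**Figure D1:**
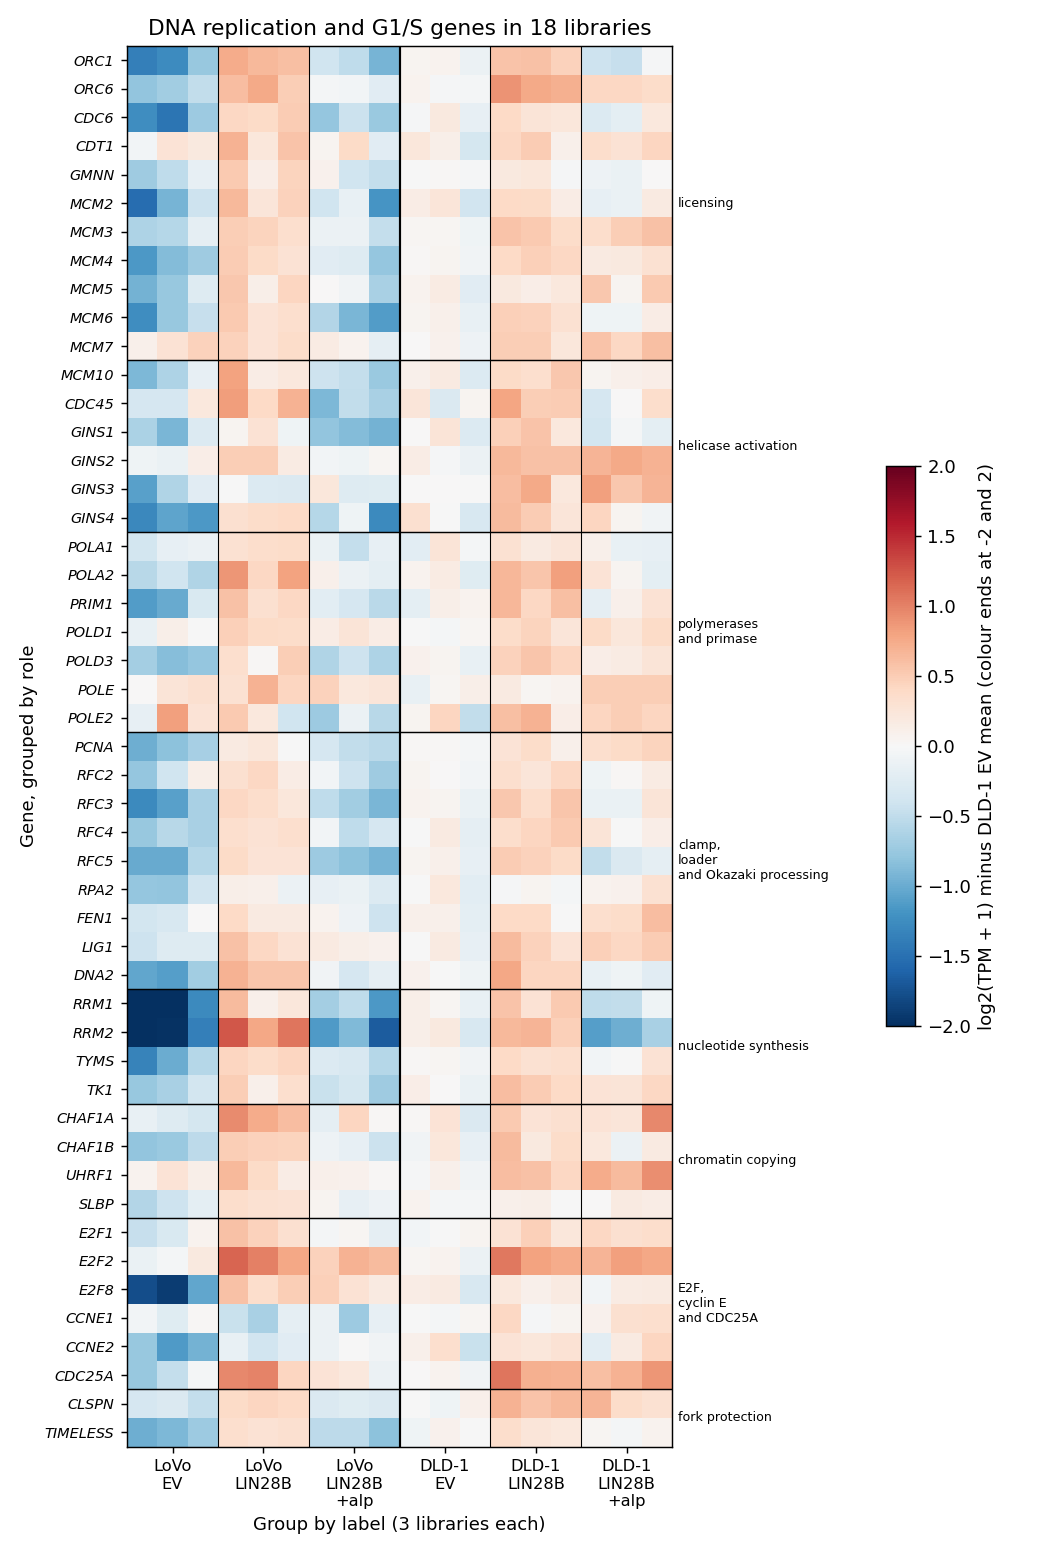
Each row is 1 of the 49 genes, grouped by role, and each column 1 of the 18 libraries; colour shows log2(TPM + 1) minus the DLD-1 EV mean, with the colour scale ending at -2 and 2. LoVo EV is mostly below and the untreated LIN28B libraries mostly above DLD-1 EV. In the LoVo-labelled LIN28B columns most genes are lower with alpelisib, 41 of 49 being called lower, against 24.6% of all genes.

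**Figure D2:**
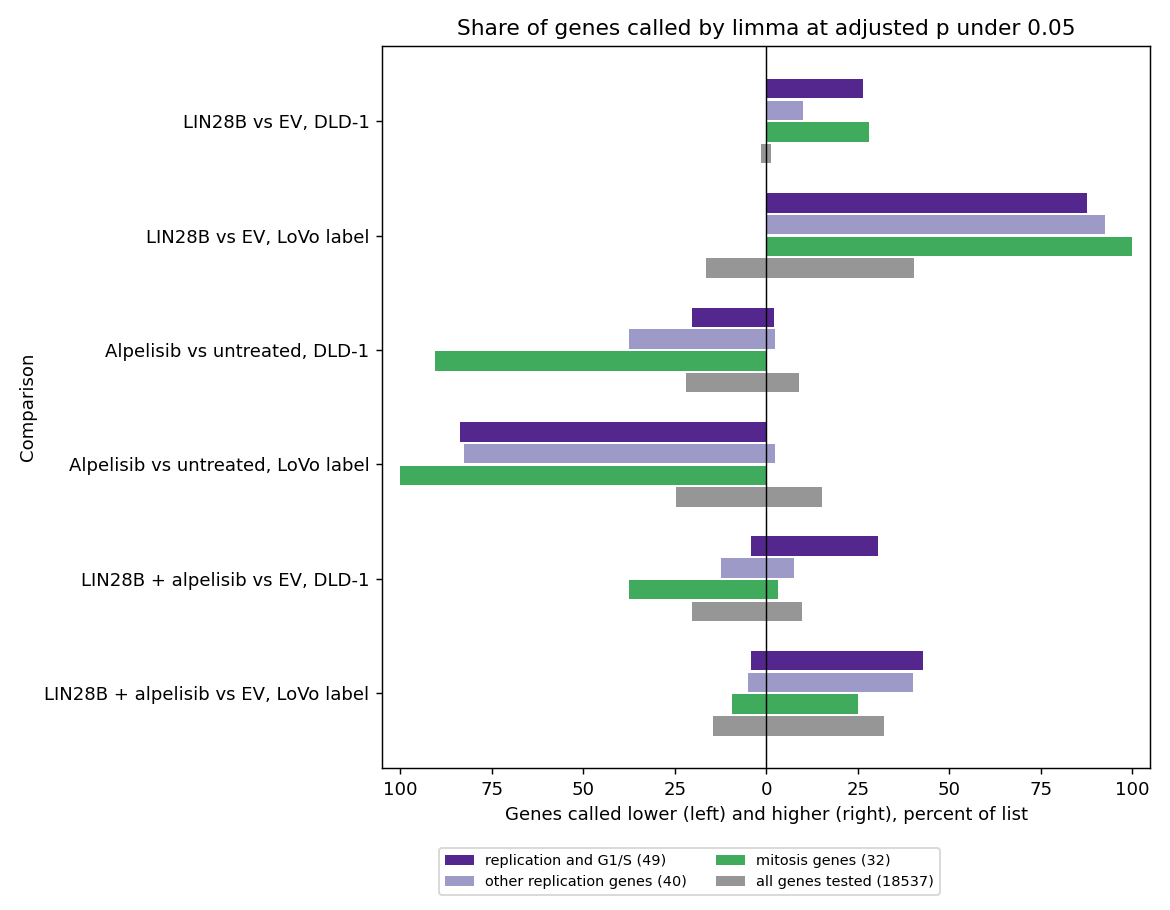
Bars give the percentage of genes called higher (right) or lower (left) by limma in 6 comparisons, for the 49 genes, 40 other replication genes, 32 mitosis genes and all 18537 genes tested. For alpelisib in DLD-1 the bar of the 49 genes that fell (20.4%) is near that of all genes (21.9%), while under the LoVo label it is 83.7% against 24.6%. On the median-of-ratios scale the DLD-1 calls were 8 higher and 7 lower, with no share of all genes worked out on that scale.

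Among the licensing genes, ORC1 and ORC6 are subunits of the origin recognition complex. ORC1 lay at 8.94, 9.05 and 7.91 TPM with EV, 13.3, 13.4 and 12.2 TPM with LIN28B and 6.24, 5.98 and 8.45 TPM with LIN28B and alpelisib in DLD-1. ORC1 under the LoVo label had 2.75, 3.03 and 4.71 TPM with EV, 15.1, 14.1 and 13.6 TPM with LIN28B and 6.27, 5.78 and 4.07 TPM with LIN28B and alpelisib. The untreated LIN28B libraries were highest under both labels, and the alpelisib libraries did not overlap them. ORC1 fell with alpelisib by limma in DLD-1 (-0.84 ± 0.17, adjusted p = 0.0016) and under the LoVo label (-1.28 ± 0.17, adjusted p = 2.7e-05), and it rose with LIN28B under the LoVo label (1.79 ± 0.17, adjusted p = 1.76e-07), while the change in DLD-1 was 0.54 ± 0.17 (adjusted p = 0.113). ORC6 read 18.9, 17.7 and 17.5 TPM with EV, 34.4, 31.2 and 30.1 TPM with LIN28B and 24.4, 24.3 and 23.6 TPM with LIN28B and alpelisib in DLD-1. ORC6 under the LoVo label had 10.03, 10.8 and 12.5 TPM with EV, 28.1, 31.3 and 25.7 TPM with LIN28B and 17.6, 17.3 and 15.3 TPM with LIN28B and alpelisib. Neither label's EV libraries overlapped the LIN28B libraries. ORC6 was the member with the smallest p for LIN28B under both labels, 0.79 ± 0.097, adjusted p = 0.000656 in DLD-1 and 1.28 ± 0.097, adjusted p = 1.63e-08 under the LoVo label by limma, and in DLD-1 the only one called under every setting tried. With alpelisib it fell by limma in DLD-1 (-0.39 ± 0.097, adjusted p = 0.00696), a call that median-of-ratios scaling ended (adjusted p = 0.0522), and under the LoVo label (-0.73 ± 0.097, adjusted p = 3.29e-05).

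CDC6 and CDT1 bring the MCM helicase to the origin. CDC6 had 31.02, 36.4 and 28.01 TPM with EV, 41.9, 38.2 and 37.1 TPM with LIN28B and 25.9, 27.6 and 36.9 TPM with LIN28B and alpelisib in DLD-1. CDC6 under the LoVo label had 12.8, 10.9 and 18.7 TPM with EV, 42.3, 41.5 and 45.6 TPM with LIN28B and 17.99, 23.2 and 18.4 TPM with LIN28B and alpelisib. The alpelisib libraries of the LoVo label lay below their untreated ones, and so did those of DLD-1 (37.1 to 41.9 TPM untreated and 25.9 to 36.9 TPM with alpelisib). By limma CDC6 rose with LIN28B under the LoVo label (1.58 ± 0.17, adjusted p = 7.37e-07) and fell there with alpelisib (-1.09 ± 0.17, adjusted p = 0.000111), and in DLD-1 the alpelisib change was -0.38 ± 0.17 (adjusted p = 0.101). CDT1 was 15.4, 14.3 and 10.1 TPM with EV, 17.8, 18.97 and 14.1 TPM with LIN28B and 16.9, 16.2 and 18.03 TPM with LIN28B and alpelisib in DLD-1. CDT1 under the LoVo label had 12.6, 15.9 and 15.2 TPM with EV, 21.9, 15.4 and 19.9 TPM with LIN28B and 13.6, 17.3 and 10.98 TPM with LIN28B and alpelisib. Its groups overlapped, and it passed the test in none of the LIN28B or alpelisib comparisons, the alpelisib change under the LoVo label being -0.43 ± 0.18 (limma adjusted p = 0.0662). GMNN, which encodes geminin, the inhibitor of CDT1, was 30.96, 31.7 and 30.7 TPM with EV, 35.7, 36.6 and 30.7 TPM with LIN28B and 28.96, 28.1 and 31.2 TPM with LIN28B and alpelisib in DLD-1. GMNN under the LoVo label had 18.6, 21.6 and 27.6 TPM with EV, 45.3, 34.1 and 42.9 TPM with LIN28B and 33.01, 23.4 and 22.00 TPM with LIN28B and alpelisib. GMNN rose with LIN28B (0.83 ± 0.15, adjusted p = 0.000199) and fell with alpelisib (-0.64 ± 0.15, adjusted p = 0.00361) under the LoVo label by limma, with no overlap of groups in either.

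MCM2 to MCM7 form the ring of the replicative helicase. MCM2 had 44.02, 46.9 and 30.2 TPM with EV, 52.6, 52.1 and 44.2 TPM with LIN28B and 35.2, 36.2 and 44.9 TPM with LIN28B and alpelisib in DLD-1. MCM2 under the LoVo label had 13.2, 20.4 and 29.6 TPM with EV, 62.8, 47.01 and 54.9 TPM with LIN28B and 29.97, 35.5 and 16.9 TPM with LIN28B and alpelisib. Under the LoVo label the untreated LIN28B libraries overlapped neither other group, and by limma MCM2 rose with LIN28B (1.40 ± 0.27, adjusted p = 0.000264) and fell with alpelisib (-1.03 ± 0.27, adjusted p = 0.0059). In DLD-1 its groups overlapped and the alpelisib change was -0.35 ± 0.27 (adjusted p = 0.34). MCM3 had 50.5, 50.5 and 45.9 TPM with EV, 73.3, 70.6 and 63.5 TPM with LIN28B and 62.97, 69.6 and 73.5 TPM with LIN28B and alpelisib in DLD-1. MCM3 under the LoVo label had 31.7, 32.6 and 43.1 TPM with EV, 68.98, 66.8 and 62.2 TPM with LIN28B and 45.2, 44.8 and 35.04 TPM with LIN28B and alpelisib. In DLD-1 the ranges with and without alpelisib overlapped (log2 change -0.0099, 95% interval -0.26 to 0.24), and under the LoVo label it fell by limma (-0.66 ± 0.12, adjusted p = 0.000424). Its LIN28B rise in DLD-1 (0.49 ± 0.12, adjusted p = 0.039 by limma) was lost without LoVo-labelled LIN28B replicate 1, 2 or 3, or DLD-1 EV replicate 1, 2 or 3, or DLD-1 LIN28B replicate 1, 2 or 3, or DLD-1 LIN28B with alpelisib replicate 2 (adjusted p 0.0502 to 0.155).

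MCM7 lay at 96.95, 103 and 90.1 TPM with EV, 136, 137 and 113 TPM with LIN28B and 143, 129.6 and 148 TPM with LIN28B and alpelisib in DLD-1. MCM7 under the LoVo label had 104, 119 and 134 TPM with EV, 133, 117 and 125 TPM with LIN28B and 108, 102 and 85.01 TPM with LIN28B and alpelisib. It was the one licensing gene besides CDT1 that did not rise with LIN28B under the LoVo label (0.076 ± 0.11, limma adjusted p = 0.577), and on the median-of-ratios scale it was lower there (-0.35, limma adjusted p = 0.00121). MCM7 fell with alpelisib under the LoVo label by limma (-0.35 ± 0.11, adjusted p = 0.0186), a call lost without LoVo-labelled LIN28B replicate 1, or LoVo-labelled LIN28B with alpelisib replicate 3 (adjusted p 0.0749 to 0.105) and on the median-of-ratios scale (-0.16, adjusted p = 0.109). MCM4 and MCM6 fell with alpelisib under the LoVo label, with log2 changes of -0.81 and -1.25 (limma adjusted p = 0.000159 and 3.45e-05). MCM5 had the change -0.60 ± 0.20, adjusted p = 0.023 there by limma, and its call was lost without LoVo-labelled LIN28B replicate 1 or 3, or LoVo-labelled LIN28B with alpelisib replicate 3 (adjusted p 0.0669 to 0.136). In DLD-1 none of the 6 MCM genes passed the test with alpelisib, with changes from -0.42 (MCM6) to 0.19 (MCM5), and 1 of them, MCM6, had an unadjusted limma p under 0.05. In all, 10 of 11 licensing genes fell with alpelisib under the LoVo label (24.6% of all genes did) and 2 of 11 in DLD-1 (21.9% of all genes did).

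In the helicase activation group, MCM10, which helps the loaded helicase to open, was 6.92, 7.38 and 5.08 TPM with EV, 8.65, 8.36 and 9.72 TPM with LIN28B and 6.67, 6.92 and 7.14 TPM with LIN28B and alpelisib in DLD-1. MCM10 under the LoVo label had 2.96, 3.82 and 5.63 TPM with EV, 11.9, 7.21 and 7.60 TPM with LIN28B and 4.53, 4.31 and 3.40 TPM with LIN28B and alpelisib. The LoVo-labelled groups with LIN28B did not overlap, and MCM10 fell there with alpelisib by limma (-0.94 ± 0.20, adjusted p = 0.00134), after a rise with LIN28B (0.95 ± 0.20, adjusted p = 0.000574). In DLD-1 the alpelisib change of MCM10 was -0.32 ± 0.20 (adjusted p = 0.23). CDC45, a subunit of the active helicase, fell by limma in DLD-1 (-0.59 ± 0.20, adjusted p = 0.0318) and under the LoVo label (-1.32 ± 0.20, adjusted p = 8.11e-05), and the DLD-1 call was lost without DLD-1 LIN28B replicate 1 or 3, or DLD-1 LIN28B with alpelisib replicate 1 or 2 (adjusted p 0.0528 to 0.159).

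GINS1 to GINS4 are the 4 subunits of GINS. GINS2 read 8.64, 7.56 and 6.99 TPM with EV, 12.7, 12.1 and 12.1 TPM with LIN28B and 12.99, 13.8 and 13.2 TPM with LIN28B and alpelisib in DLD-1. GINS2 under the LoVo label had 7.17, 6.97 and 8.51 TPM with EV, 11.2, 11.2 and 8.71 TPM with LIN28B and 7.35, 7.18 and 7.90 TPM with LIN28B and alpelisib. It rose with LIN28B by limma in DLD-1 (0.61 ± 0.11, adjusted p = 0.00934) and under the LoVo label (0.41 ± 0.11, adjusted p = 0.00528), and it fell with alpelisib under the LoVo label (-0.42 ± 0.11, adjusted p = 0.00768), the last call being lost on the median-of-ratios scale (adjusted p = 0.0663). GINS3 had 6.17, 6.16 and 6.10 TPM with EV, 10.00, 11.1 and 7.27 TPM with LIN28B and 11.6, 9.33 and 10.5 TPM with LIN28B and alpelisib in DLD-1. GINS3 under the LoVo label had 2.36, 3.69 and 5.12 TPM with EV, 6.09, 4.89 and 4.86 TPM with LIN28B and 7.39, 4.99 and 5.07 TPM with LIN28B and alpelisib. Its alpelisib changes were 0.15 ± 0.20 and 0.11 ± 0.20, neither called by limma (adjusted p = 0.624 and 0.712). GINS1 fell under both labels by limma, -0.62 ± 0.17, adjusted p = 0.0113 in DLD-1 and -0.95 ± 0.17, adjusted p = 0.000394 under the LoVo label, the DLD-1 call being lost without DLD-1 LIN28B with alpelisib replicate 1 (adjusted p 0.0555). GINS4 fell under the LoVo label by limma (-1.01 ± 0.23, adjusted p = 0.00258) and had -0.32 ± 0.23 in DLD-1 (adjusted p = 0.324). In all, 5 of 6 of these genes fell with alpelisib under the LoVo label (24.6% of all genes did) and 2 of 6 in DLD-1 (21.9% of all genes did).

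Of the polymerase genes, POLA1, POLA2 and PRIM1 belong to polymerase alpha and its primase, which start each new strand. POLA2 lay at 12.5, 13.4 and 9.80 TPM with EV, 19.1, 17.8 and 21.6 TPM with LIN28B and 14.4, 12.3 and 10.2 TPM with LIN28B and alpelisib in DLD-1. POLA2 under the LoVo label had 7.71, 8.70 and 7.39 TPM with EV, 22.5, 15.9 and 21.4 TPM with LIN28B and 12.7, 10.8 and 10.1 TPM with LIN28B and alpelisib. Alpelisib libraries were below untreated ones without overlap under both labels, and POLA2 fell by limma in DLD-1 (-0.63 ± 0.15, adjusted p = 0.00569) and under the LoVo label (-0.77 ± 0.15, adjusted p = 0.000904). Its rise with LIN28B in DLD-1 (0.68 ± 0.15, adjusted p = 0.028 by limma) was lost without DLD-1 EV replicate 1 or 3, or DLD-1 LIN28B replicate 1, 2 or 3 (adjusted p 0.0518 to 0.122). POLA1 and PRIM1 fell under the LoVo label (-0.59 and -0.80, limma adjusted p = 0.00225 and 0.00231), and in DLD-1 they had -0.32 and -0.48 (adjusted p = 0.0829 and 0.0519). PRIM1 overlaps NACA, which had a mean of 1604 TPM, on the same strand.

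POLE encodes the catalytic subunit of the leading-strand polymerase epsilon. It was 26.1, 29.6 and 31.4 TPM with EV, 32.9, 29.9 and 30.6 TPM with LIN28B and 41.1, 41.1 and 41.1 TPM with LIN28B and alpelisib in DLD-1. POLE under the LoVo label had 29.02, 34.7 and 36.2 TPM with EV, 35.9, 47.3 and 39.1 TPM with LIN28B and 40.02, 33.6 and 34.5 TPM with LIN28B and alpelisib. All 3 DLD-1 alpelisib libraries lay above the untreated ones, and POLE was the only member that rose with alpelisib there on the TPM scale (0.39 ± 0.11, adjusted p = 0.0137 by limma), and it was called higher in every setting tried. Under the LoVo label the groups overlapped (-0.17 ± 0.11, adjusted p = 0.245). The difference between the labels, -0.56 ± 0.16, did not pass the test (limma adjusted p = 0.117). POLE2, another subunit of that enzyme, had changes of -0.025 ± 0.28 and -0.58 ± 0.28 in DLD-1 and under the LoVo label (limma adjusted p = 0.968 and 0.114). POLD1 and POLD3 belong to polymerase delta, the lagging-strand enzyme. POLD3 fell under the LoVo label by limma (-0.82 ± 0.12, adjusted p = 4.78e-05). The fall of POLD1 there was small (-0.22 ± 0.086, adjusted p = 0.0484 by limma), ended on the median-of-ratios scale (-0.04, adjusted p = 0.728) and was lost without LoVo-labelled LIN28B replicate 1, 2 or 3, or LoVo-labelled LIN28B with alpelisib replicate 1 or 3, or DLD-1 EV replicate 1, 2 or 3, or DLD-1 LIN28B replicate 1 or 2, or DLD-1 LIN28B with alpelisib replicate 1 or 3 (adjusted p 0.0512 to 0.154). In all, 5 of these 7 genes fell under the LoVo label (24.6% of all genes did). In DLD-1 1 fell and 1 rose (21.9% and 9.05% of all genes did).

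PCNA, first of the clamp, loader and Okazaki group, is the ring that holds polymerases on DNA. It lay at 220.4, 220.4 and 212 TPM with EV, 263, 279.6 and 235 TPM with LIN28B and 274, 283 and 295 TPM with LIN28B and alpelisib in DLD-1. PCNA under the LoVo label had 110.2, 123 and 138 TPM with EV, 246, 254 and 217 TPM with LIN28B and 172, 154 and 149.8 TPM with LIN28B and alpelisib. In DLD-1 alpelisib and untreated ranges overlapped, and under the LoVo label every alpelisib library was lower than every untreated one. PCNA fell by limma under the LoVo label (-0.59 ± 0.09, adjusted p = 0.000107), to 0.663 times the untreated mean TPM, while in DLD-1 its change was 0.14 ± 0.09 (95% interval -0.056 to 0.33, adjusted p = 0.276). On the median-of-ratios scale PCNA was higher with alpelisib in DLD-1 (0.32, limma adjusted p = 0.00226).

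RFC2 to RFC5 are subunits of the loader that opens the PCNA ring. RFC5 read 40.1, 41.3 and 34.4 TPM with EV, 54.98, 53.3 and 50.2 TPM with LIN28B and 27.1, 31.3 and 33.8 TPM with LIN28B and alpelisib in DLD-1. RFC5 under the LoVo label had 18.6, 18.7 and 25.5 TPM with EV, 50.4, 46.7 and 46.5 TPM with LIN28B and 22.8, 21.4 and 19.7 TPM with LIN28B and alpelisib. It was highest in the untreated LIN28B libraries and did not overlap them with alpelisib under either label. RFC5 fell by limma in DLD-1 (-0.77 ± 0.12, adjusted p = 0.00023) and under the LoVo label (-1.13 ± 0.12, adjusted p = 2.74e-06). RFC3 fell by limma under both labels too, -0.48 ± 0.16, adjusted p = 0.0267 in DLD-1 and -1.04 ± 0.16, adjusted p = 8.69e-05 under the LoVo label, with the DLD-1 call lost without DLD-1 LIN28B replicate 1 or 3, or DLD-1 LIN28B with alpelisib replicate 1 or 2 (adjusted p 0.0793 to 0.101). RFC2 and RFC4 fell under the LoVo label (-0.69 and -0.62, limma adjusted p = 0.00646 and 0.000477), and in DLD-1 they had -0.30 and -0.31 (adjusted p = 0.228 and 0.0516).

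DNA2, a nuclease and helicase that trims Okazaki flaps, was 6.83, 6.35 and 5.89 TPM with EV, 11.6, 8.85 and 8.94 TPM with LIN28B and 5.63, 5.91 and 5.26 TPM with LIN28B and alpelisib in DLD-1. DNA2 under the LoVo label had 2.59, 2.41 and 3.54 TPM with EV, 10.8, 9.76 and 9.81 TPM with LIN28B and 5.997, 4.80 and 5.48 TPM with LIN28B and alpelisib. DNA2 fell with alpelisib by limma in DLD-1 (-0.70 ± 0.13, adjusted p = 0.00115) and under the LoVo label (-0.80 ± 0.13, adjusted p = 0.000234), with no overlap of groups, and the 2 falls differed by -0.094 ± 0.19 (adjusted p = 0.907). FEN1, the main flap nuclease, and LIG1, the ligase that seals the fragments, had small falls under the LoVo label. FEN1 had -0.40 ± 0.15, adjusted p = 0.0422 there by limma, lost without LoVo-labelled LIN28B replicate 1, 2 or 3, or LoVo-labelled LIN28B with alpelisib replicate 2 or 3 (adjusted p 0.0589 to 0.207). LIG1 had -0.31 ± 0.11, adjusted p = 0.0306 by limma, lost without LoVo-labelled LIN28B replicate 1 or 2, or LoVo-labelled LIN28B with alpelisib replicate 2 or 3 (adjusted p 0.0573 to 0.144). On the median-of-ratios scale both calls ended (-0.22, adjusted p = 0.147 for FEN1 and -0.12, adjusted p = 0.288 for LIG1). RPA2, a subunit of the protein that coats single-stranded DNA, had alpelisib changes of 0.15 ± 0.12 and -0.23 ± 0.12, neither called by limma (adjusted p = 0.368 and 0.159). In all, 8 of 9 of these genes fell under the LoVo label (24.6% of all genes did) and 3 of 9 in DLD-1 (21.9% of all genes did).

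In nucleotide synthesis, RRM2 is the regulatory subunit of ribonucleotide reductase, which makes the DNA building blocks, and it had the largest changes of the 49 genes with alpelisib under both labels. It lay at 234, 249 and 174 TPM with EV, 339, 348 and 302 TPM with LIN28B and 101, 109.5 and 138 TPM with LIN28B and alpelisib in DLD-1. RRM2 under the LoVo label had 41.2, 54.5 and 83.1 TPM with EV, 514, 371 and 454 TPM with LIN28B and 98.2, 117 and 67.8 TPM with LIN28B and alpelisib. The untreated LIN28B libraries were far above the others under the LoVo label, and the alpelisib libraries were below them without overlap under both labels. RRM2 fell by limma in DLD-1 (-1.51 ± 0.23, adjusted p = 0.000229) and under the LoVo label (-2.25 ± 0.23, adjusted p = 2.49e-06), to 0.352 and 0.211 times the untreated mean TPM. It had also the largest rise with LIN28B under the LoVo label (2.93 ± 0.23, adjusted p = 2.31e-08 by limma), and in DLD-1 the LIN28B change was 0.60 ± 0.23 (adjusted p = 0.218). The 2 alpelisib effects differed by -0.75 ± 0.32 (limma adjusted p = 0.345).

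RRM1, the catalytic subunit, was 103, 97.7 and 85.9 TPM with EV, 142, 117 and 138 TPM with LIN28B and 66.5, 67.7 and 89.3 TPM with LIN28B and alpelisib in DLD-1. RRM1 under the LoVo label had 20.3, 19.8 and 38.9 TPM with EV, 148, 102 and 112 TPM with LIN28B and 59.5, 67.00 and 42.6 TPM with LIN28B and alpelisib. RRM1 fell with alpelisib by limma in DLD-1 (-0.83 ± 0.22, adjusted p = 0.0111) and under the LoVo label (-1.09 ± 0.22, adjusted p = 0.00118). TYMS and TK1 make thymidylate, by synthesis and by salvage. TYMS had 119.8, 121 and 112 TPM with EV, 155, 145 and 148 TPM with LIN28B and 113, 118 and 144 TPM with LIN28B and alpelisib in DLD-1. TYMS under the LoVo label had 46.1, 58.5 and 79.2 TPM with EV, 159.6, 153 and 159 TPM with LIN28B and 97.7, 93.8 and 78.9 TPM with LIN28B and alpelisib. It fell by limma under the LoVo label (-0.80 ± 0.14, adjusted p = 0.000389), and in DLD-1 had -0.27 ± 0.14 (adjusted p = 0.172). TYMS overlaps ENOSF1 on the opposite strand. TK1 read 171, 158 and 143 TPM with EV, 242, 223 and 208 TPM with LIN28B and 190.1, 187 and 208 TPM with LIN28B and alpelisib in DLD-1. TK1 under the LoVo label had 91.8, 99.95 and 121 TPM with EV, 221, 167 and 198 TPM with LIN28B and 114, 122 and 95.2 TPM with LIN28B and alpelisib. It fell with alpelisib by limma under the LoVo label (-0.81 ± 0.12, adjusted p = 8.69e-05) and had -0.20 ± 0.12 in DLD-1 (adjusted p = 0.236). The LIN28B rise of TK1 in DLD-1 (0.51 ± 0.12, adjusted p = 0.0375 by limma) was lost without DLD-1 EV replicate 1, 2 or 3, or DLD-1 LIN28B replicate 1, 2 or 3 (adjusted p 0.0589 to 0.152). All 4 of these genes fell with alpelisib under the LoVo label (24.6% of all genes did), and RRM1 and RRM2 in DLD-1 (21.9% of all genes did).

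**Figure D3:**
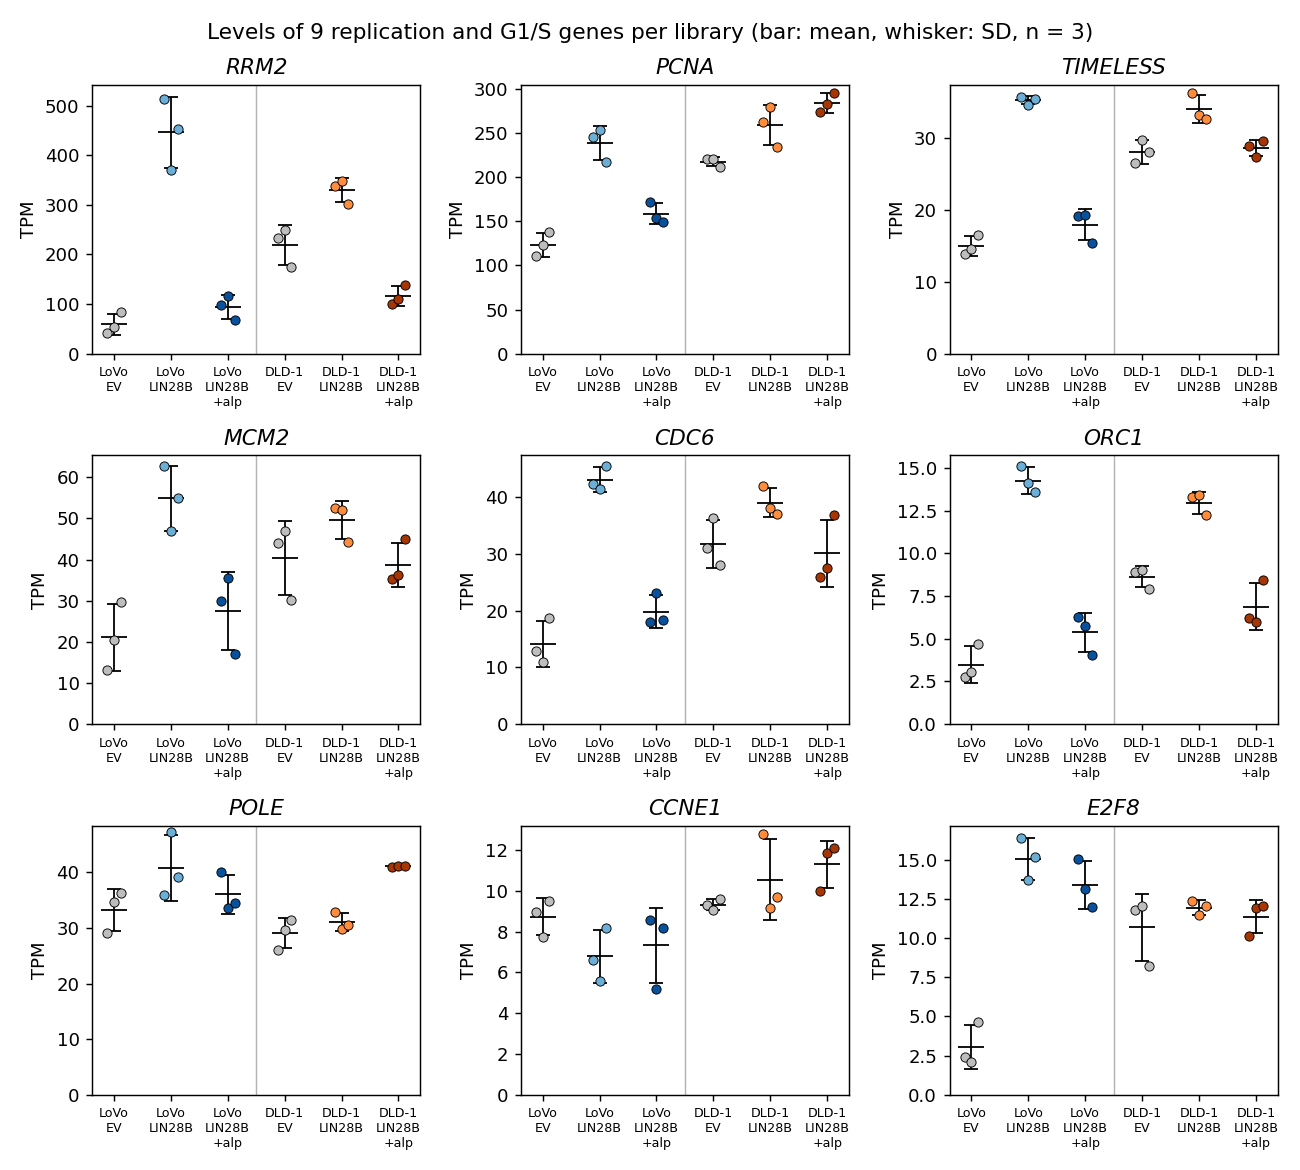
TPM of 9 genes in each library (points), with the mean of each group (bar) and its SD (whisker, n = 3), for the 6 groups; the vertical axes start at 0. RRM2 falls with alpelisib under both labels, whereas PCNA and TIMELESS fall under the LoVo label and POLE is higher with alpelisib in DLD-1.

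In chromatin copying, CHAF1A and CHAF1B are subunits of the factor that puts histones on new DNA, UHRF1 guides the copying of DNA methylation, and SLBP binds the stem loop of histone messages. UHRF1 lay at 17.3, 18.8 and 16.6 TPM with EV, 27.3, 26.98 and 23.7 TPM with LIN28B and 30.1, 27.7 and 34.2 TPM with LIN28B and alpelisib in DLD-1. UHRF1 under the LoVo label had 18.5, 21.4 and 19.1 TPM with EV, 28.1, 23.1 and 19.6 TPM with LIN28B and 18.96, 18.8 and 17.8 TPM with LIN28B and alpelisib. By limma UHRF1 rose with LIN28B in DLD-1 (0.54 ± 0.12, adjusted p = 0.0236), a call lost without DLD-1 EV replicate 1 or 3, or DLD-1 LIN28B replicate 1 or 2 (adjusted p 0.0784 to 0.102), and it did not pass under the LoVo label (0.24 ± 0.12, adjusted p = 0.0916). With alpelisib UHRF1 had 0.23 ± 0.12 in DLD-1 (limma adjusted p = 0.155) and fell under the LoVo label (-0.32 ± 0.12, adjusted p = 0.0387), the latter lost without LoVo-labelled LIN28B replicate 1 or 2, or LoVo-labelled LIN28B with alpelisib replicate 1, 2 or 3 (adjusted p 0.062 to 0.214) and on the median-of-ratios scale (-0.14, adjusted p = 0.327). SLBP had 84.8, 78.04 and 78.3 TPM with EV, 86.1, 87.4 and 80.00 TPM with LIN28B and 81.05, 90.9 and 89.6 TPM with LIN28B and alpelisib in DLD-1. SLBP under the LoVo label had 53.3, 60.1 and 69.8 TPM with EV, 102, 99.6 and 97.99 TPM with LIN28B and 83.6, 71.8 and 75.1 TPM with LIN28B and alpelisib. It fell with alpelisib by limma under the LoVo label (-0.38 ± 0.091, adjusted p = 0.00356) and had 0.044 ± 0.091 in DLD-1 (adjusted p = 0.762). CHAF1A and CHAF1B fell under the LoVo label (-0.68 and -0.70, limma adjusted p = 0.0105 and 0.00125), the first lost without LoVo-labelled LIN28B with alpelisib replicate 1 (adjusted p 0.0527). All 4 fell under the LoVo label (24.6% of all genes did), and none passed the test in DLD-1, where 21.9% of all genes fell. In DLD-1 1 of the 4 (CHAF1B, -0.31 ± 0.14) had an unadjusted limma p under 0.05.

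In the E2F and cyclin E group, E2F1 and E2F2 are activating E2F factors and E2F8 a repressing one that E2F1 itself induces. E2F1 read 8.30, 8.63 and 9.02 TPM with EV, 10.8, 12.4 and 10.3 TPM with LIN28B and 11.9, 10.99 and 11.3 TPM with LIN28B and alpelisib in DLD-1. E2F1 under the LoVo label had 6.02, 6.79 and 9.08 TPM with EV, 13.5, 12.3 and 11.02 TPM with LIN28B and 8.38, 8.96 and 7.50 TPM with LIN28B and alpelisib. It rose with LIN28B (0.69 ± 0.13, adjusted p = 0.000211) and fell with alpelisib (-0.52 ± 0.13, adjusted p = 0.00445) under the LoVo label by limma, and in DLD-1 the alpelisib ranges overlapped (0.029 ± 0.13, adjusted p = 0.898). E2F2 was 2.55, 2.65 and 2.20 TPM with EV, 6.20, 5.08 and 4.77 TPM with LIN28B and 4.56, 5.14 and 4.90 TPM with LIN28B and alpelisib in DLD-1. E2F2 under the LoVo label had 2.17, 2.37 and 2.96 TPM with EV, 6.77, 5.99 and 4.89 TPM with LIN28B and 3.79, 4.62 and 4.35 TPM with LIN28B and alpelisib. E2F2 was a low gene that rose with LIN28B by limma under both labels (0.87 ± 0.14, adjusted p = 0.00345 in DLD-1 and 0.97 ± 0.14, adjusted p = 1.73e-05 under the LoVo label). Its alpelisib fall under the LoVo label (-0.38 ± 0.14, adjusted p = 0.038 by limma) was lost without LoVo-labelled LIN28B replicate 1 or 2, or LoVo-labelled LIN28B with alpelisib replicate 1 or 3 (adjusted p 0.0713 to 0.16) and on the median-of-ratios scale (-0.23, adjusted p = 0.155). E2F8 had 11.8, 12.03 and 8.21 TPM with EV, 12.3, 11.4 and 12.02 TPM with LIN28B and 10.2, 11.9 and 12.02 TPM with LIN28B and alpelisib in DLD-1. E2F8 under the LoVo label had 2.39, 2.09 and 4.63 TPM with EV, 16.4, 13.7 and 15.2 TPM with LIN28B and 15.02, 13.1 and 12.01 TPM with LIN28B and alpelisib. LoVo EV was far below the other 5 groups, and E2F8 rose with LIN28B there (2.04 ± 0.19, adjusted p = 1.43e-07 by limma), whereas the ranges with and without alpelisib overlapped under both labels (-0.068 ± 0.19 and -0.16 ± 0.19, adjusted p = 0.828 and 0.534).

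Cyclins E1 and E2 drive CDK2 at the G1/S step, and the phosphatase CDC25A activates that kinase. CCNE1 lay at 9.30, 9.06 and 9.62 TPM with EV, 12.8, 9.16 and 9.71 TPM with LIN28B and 9.99, 11.8 and 12.1 TPM with LIN28B and alpelisib in DLD-1. CCNE1 under the LoVo label had 8.98, 7.75 and 9.50 TPM with EV, 6.60, 5.60 and 8.16 TPM with LIN28B and 8.56, 5.21 and 8.20 TPM with LIN28B and alpelisib. It passed the test in neither LIN28B comparison and in neither alpelisib comparison, the alpelisib changes being 0.10 ± 0.17 and 0.083 ± 0.17 (limma adjusted p = 0.705 and 0.736). CCNE2 was 7.69, 9.23 and 4.98 TPM with EV, 8.84, 8.50 and 8.87 TPM with LIN28B and 5.96, 8.16 and 9.92 TPM with LIN28B and alpelisib in DLD-1. CCNE2 under the LoVo label had 3.76, 2.68 and 3.22 TPM with EV, 6.32, 5.20 and 5.92 TPM with LIN28B and 6.46, 7.05 and 6.69 TPM with LIN28B and alpelisib. CCNE2 rose with LIN28B under the LoVo label (0.70 ± 0.18, adjusted p = 0.004 by limma), and with alpelisib it had -0.13 ± 0.18 and 0.19 ± 0.18 (adjusted p = 0.625 and 0.459). CDC25A fell with alpelisib under the LoVo label by limma (-0.67 ± 0.19, adjusted p = 0.0101), lost without LoVo-labelled LIN28B with alpelisib replicate 3 (adjusted p 0.0544), and in DLD-1 had -0.092 ± 0.19 (adjusted p = 0.761). Of the 8 members that did not fall with alpelisib under the LoVo label, 3 (CCNE1, CCNE2 and E2F8) belong here, beside CDT1, GINS3, POLE, POLE2 and RPA2.

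Of the fork protection genes, CLSPN, or claspin, passes the checkpoint signal of a stalled fork to its kinase, and TIMELESS holds helicase and polymerase together. CLSPN read 5.83, 5.47 and 6.42 TPM with EV, 10.1, 9.19 and 9.77 TPM with LIN28B and 10.01, 7.89 and 7.52 TPM with LIN28B and alpelisib in DLD-1. CLSPN under the LoVo label had 4.44, 4.67 and 3.96 TPM with EV, 8.04, 8.34 and 8.04 TPM with LIN28B and 4.62, 4.82 and 4.64 TPM with LIN28B and alpelisib. It rose with LIN28B by limma in DLD-1 (0.63 ± 0.11, adjusted p = 0.00713) and fell with alpelisib under the LoVo label (-0.68 ± 0.11, adjusted p = 0.000178), with -0.18 ± 0.11 in DLD-1 (adjusted p = 0.232). TIMELESS lay at 26.5, 29.8 and 27.99 TPM with EV, 36.2, 33.2 and 32.6 TPM with LIN28B and 28.9, 27.3 and 29.6 TPM with LIN28B and alpelisib in DLD-1. TIMELESS under the LoVo label had 13.8, 14.5 and 16.5 TPM with EV, 35.7, 34.6 and 35.4 TPM with LIN28B and 19.1, 19.3 and 15.4 TPM with LIN28B and alpelisib. Alpelisib libraries were below untreated ones under both labels. TIMELESS fell under the LoVo label by limma (-0.94 ± 0.094, adjusted p = 2.13e-06), the smallest p of the 49 genes in that comparison, and in DLD-1 had -0.24 ± 0.094 (adjusted p = 0.0637).

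**Figure D4:**
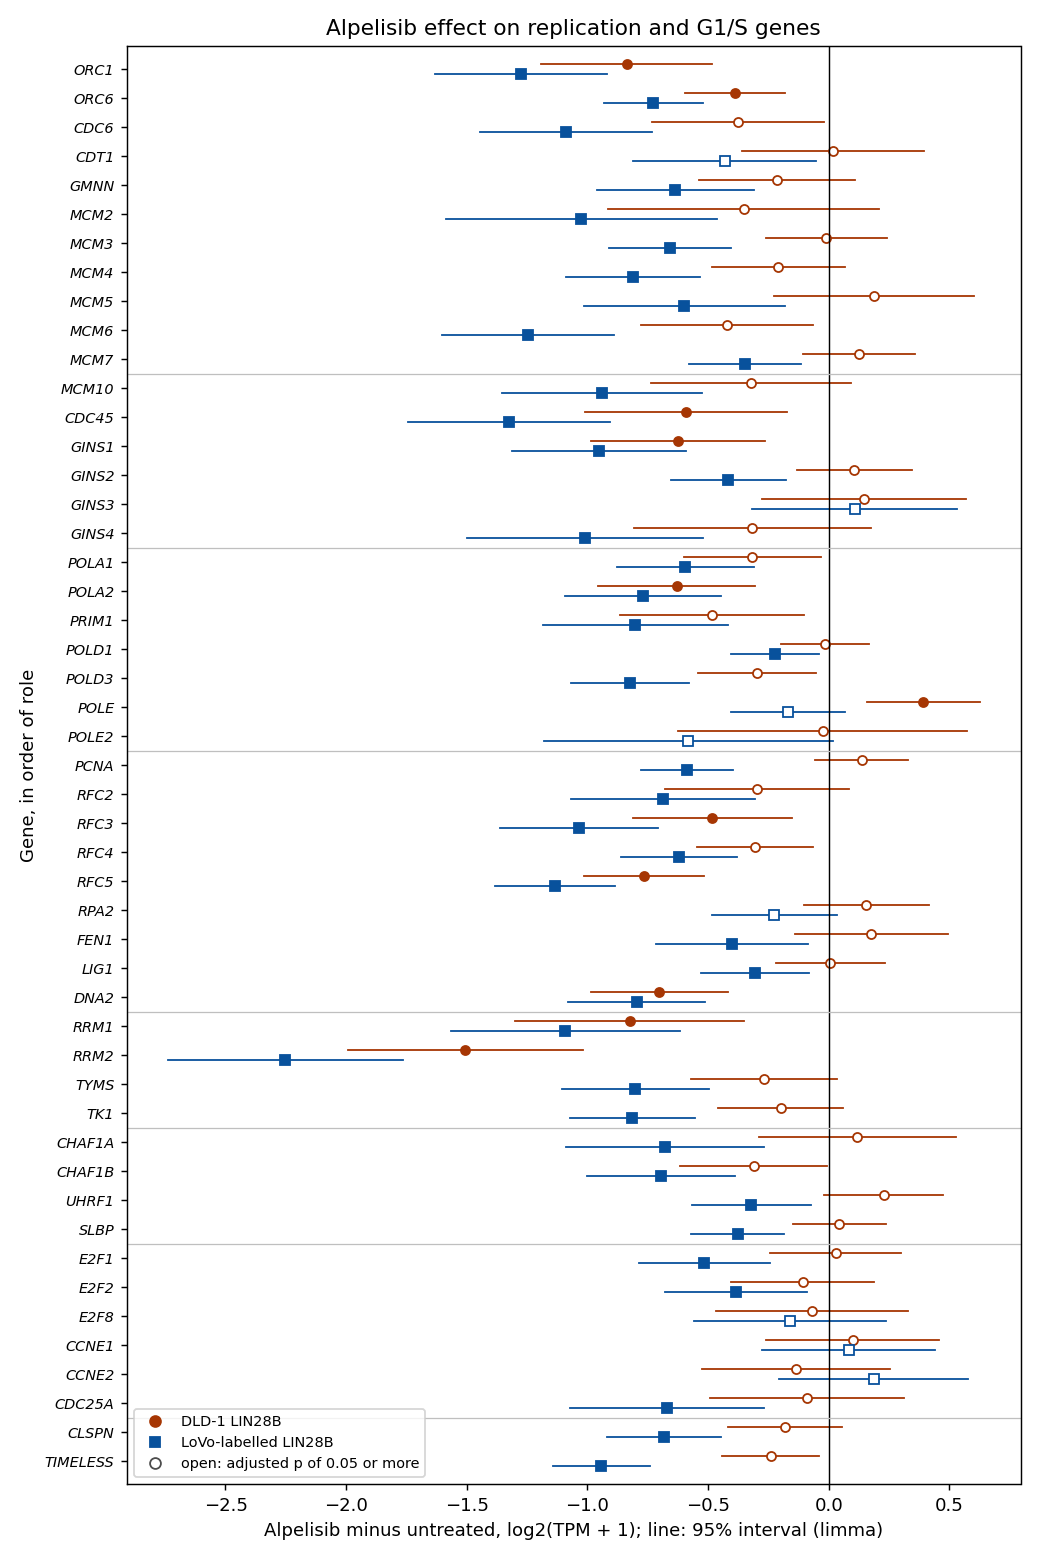
Points give the log2 change with alpelisib for each of the 49 genes and lines its 95% limma interval, for DLD-1 LIN28B cells (orange circles) and LoVo-labelled LIN28B cells (blue squares); open symbols did not pass the test. The blue points lie left of the orange ones for 48 of 49 genes. On the median-of-ratios scale 8 genes are called higher and 7 lower in DLD-1, with no share of all genes worked out on that scale.

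The difference of the alpelisib effect between the labels was tested gene by gene as LoVo label minus DLD-1. Of the 49 genes 48 had a difference below 0 (98%, against 45.9% of all genes), with a median of -0.50 against 0.0292 over all genes. The lean was not particular to them. Of the 40 other replication genes described below 37 had a difference below 0 (92.5%, median -0.27). So had all 32 mitosis genes (100%, median -0.29). By limma 2 passed, both lower, PCNA (-0.72 ± 0.13, adjusted p = 0.0119) and TIMELESS (-0.70 ± 0.13, adjusted p = 0.0181), against 0.21% of all genes called lower. At an unadjusted limma p under 0.05, 28 of 49 were lower and none higher, where the counts over all 18537 genes were 913 and 1394. The next smallest p values were those of MCM3 (-0.65 ± 0.17, adjusted p = 0.0904), POLE and TK1 (-0.62 ± 0.17, adjusted p = 0.119), and none of them passed by limma. For PCNA the call held with each library left out, but with a replicate block neither PCNA nor TIMELESS passed (limma adjusted p = 0.0824 and 0.114). The call of TIMELESS was lost without LoVo-labelled LIN28B replicate 1, or DLD-1 LIN28B replicate 3, or DLD-1 LIN28B with alpelisib replicate 1 (adjusted p 0.0515 to 0.0565). The count of 2 fell to 1 without any of those 3 libraries, and on the median-of-ratios scale it was 8 (MCM3, MCM4, MCM6, MCM7, PCNA, TK1, SLBP and TIMELESS, all lower). An individual gene that did not pass is not thereby shown to respond alike under both labels.

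Alpelisib-treated LIN28B cells were also set against EV cells, a comparison that shares libraries with those above. In DLD-1 15 of 49 were higher (9.71% of all genes were) and 2 lower (20.2% of all genes were), with a median of 0.14 against -0.0584 over all genes. On the median-of-ratios scale 23 were higher and 1 lower. UHRF1 (0.77 ± 0.12, adjusted p = 0.000227), GINS2 (0.72 ± 0.11, adjusted p = 0.000284), E2F2 (0.76 ± 0.14, adjusted p = 0.000886), MCM7 (0.53 ± 0.11, adjusted p = 0.00198) and POLE (0.49 ± 0.11, adjusted p = 0.00358) had the smallest p by limma. RRM2 was lower (-0.91 ± 0.23, adjusted p = 0.00749 by limma), and RFC5 too (-0.32 ± 0.12, adjusted p = 0.049), although its call was lost without any 1 of 12 of the 18 libraries (adjusted p 0.0536 to 0.205). Of the 15 higher calls 12 held with each library left out. GINS3 lost its call without DLD-1 LIN28B with alpelisib replicate 1 (adjusted p 0.0703), FEN1 without DLD-1 EV replicate 1, 2 or 3, or DLD-1 LIN28B with alpelisib replicate 1, 2 or 3 (adjusted p 0.0529 to 0.137) and E2F1 without LoVo-labelled LIN28B replicate 2, or LoVo-labelled LIN28B with alpelisib replicate 1, or DLD-1 EV replicate 1, 2 or 3, or DLD-1 LIN28B replicate 1, or DLD-1 LIN28B with alpelisib replicate 1, 2 or 3 (adjusted p 0.0511 to 0.121).

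For the LoVo label 21 of 49 were higher (32.2% of all genes were) and 2 lower (14.7% of all genes were), with a median of 0.33 against 0.186. The largest rises were those of E2F8 (1.88 ± 0.19, adjusted p = 4.38e-07) and RRM1 (1.11 ± 0.22, adjusted p = 0.000625), followed by CCNE2, DNA2 and RRM2 (0.88, 0.75 and 0.68) by limma, and the members that were lower were CDC45 (-0.53 ± 0.20, adjusted p = 0.0372) and POLE2 (-0.78 ± 0.28, adjusted p = 0.0329). CDC45 lost its call without LoVo EV replicate 3, or LoVo-labelled LIN28B with alpelisib replicate 1 or 3 (adjusted p 0.0618 to 0.172), POLE2 without LoVo EV replicate 2 or 3, or LoVo-labelled LIN28B with alpelisib replicate 1 or 3 (adjusted p 0.0568 to 0.172) and RRM2 without LoVo EV replicate 1 or 2, or LoVo-labelled LIN28B with alpelisib replicate 1 or 2 (adjusted p 0.0654 to 0.136). Of the 21 rises 12 held with each library left out. The split was 8 higher and 6 lower on the median-of-ratios scale, where the median of all genes moved by -0.198. The count of 23 was 15 without LoVo EV replicate 1 and 14 without replicate 1 of the alpelisib libraries. Leaving out both LoVo EV replicates 1 and 2, the libraries with the high mitochondrial share, leaves 1 LoVo EV library, so no count is given for that fit.

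At baseline, LoVo EV had lower levels than DLD-1 EV for 33 of 49 genes, against 38.2% of all genes, and a higher level for 1, MCM7 (0.29 ± 0.11, adjusted p = 0.0336 by limma), against 17.3% of all genes. The largest differences were those of RRM2 (-1.90 ± 0.23, adjusted p = 3.15e-06), RRM1 (-1.89 ± 0.22, adjusted p = 2.64e-06) and E2F8 (-1.57 ± 0.19, adjusted p = 2.85e-06) by limma, and PCNA (-0.82 ± 0.09, adjusted p = 1.19e-06) and TIMELESS (-0.87 ± 0.094, adjusted p = 1.01e-06) had the smallest p. The call of MCM7 was lost without LoVo EV replicate 2 or 3, or DLD-1 EV replicate 1 or 3 (adjusted p 0.0677 to 0.139). Of the 33 lower calls 28 held with each library left out, the others being GMNN, MCM5, MCM10, GINS3 and LIG1. On the median-of-ratios scale, where the median of all genes moved by 0.307, the split was 6 higher and 21 lower. LoVo EV replicate 3, with the lowest mitochondrial share of the 3, had the highest level of its group for 38 of the 49 genes.

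Between the untreated LIN28B cells of the 2 labels few of the genes differed by the test: 2 of 49 were lower under the LoVo label (6.02% of all genes were) and 1 higher (7.96% of all genes were), with a median of -0.03 against 0.013. GINS3 (-0.73 ± 0.20, adjusted p = 0.0225) and CCNE1 (-0.57 ± 0.17, adjusted p = 0.0336) were lower and POLE (0.37 ± 0.11, adjusted p = 0.0335) higher by limma. GINS3 lost its call without LoVo-labelled LIN28B replicate 2 or 3, or DLD-1 LIN28B replicate 1 or 2 (adjusted p 0.0733 to 0.103). CCNE1 lost its call without LoVo-labelled LIN28B replicate 1 or 2, or DLD-1 LIN28B replicate 1 or 3 (adjusted p 0.0551 to 0.156). POLE lost its call without LoVo-labelled LIN28B replicate 2 or 3, or DLD-1 LIN28B replicate 1, 2 or 3 (adjusted p 0.0538 to 0.162). CCNE2 (-0.52 ± 0.18) and SLBP (0.24 ± 0.091) came next without passing (limma adjusted p = 0.0751 and 0.0944). PCNA lay at 259 ± 22.7 TPM in DLD-1 and 239 ± 19.4 TPM under the LoVo label (SD, n = 3).

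Other genes of the pathway were read from 3 lists. Of 40 other replication genes 15 fell and 1 rose with alpelisib in DLD-1, where 21.9% of all genes fell and 9.05% rose. Under the LoVo label 33 fell and 1 rose, against 24.6% and 15.1% of all genes. The medians were -0.37 and -0.56. On the median-of-ratios scale the split was 13 lower and 4 higher in DLD-1 and 25 lower and 2 higher under the LoVo label. DBF4, the activator of the kinase that fires origins, fell by limma in both (-1.02 ± 0.14, adjusted p = 0.000138 in DLD-1 and -1.39 ± 0.14, adjusted p = 3.06e-06 under the LoVo label). WDHD1, a scaffold between helicase and polymerase alpha, fell by limma under the LoVo label (-1.39 ± 0.13, adjusted p = 1.38e-06) and in DLD-1 (-0.56 ± 0.13, adjusted p = 0.00506), with a difference of -0.82 ± 0.19 that did not pass (limma adjusted p = 0.054). None of the 40 passed the test of the difference, 7 being lower and 1 higher at an unadjusted limma p under 0.05. The unadjusted counts over all 18537 genes were 913 lower and 1394 higher. With LIN28B, 4 of the 40 rose in DLD-1 and 37 under the LoVo label by limma, against 1.21% and 40.3% of all genes; on the median-of-ratios scale 8 were higher and 1 lower in DLD-1 and 27 higher under the LoVo label.

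Of 27 regulators of G1, 16 (59.3%) fell with alpelisib under each label, against 21.9% of all genes in DLD-1 and 24.6% under the LoVo label, and 1 rose, MYC under the LoVo label; on the median-of-ratios scale 13 were lower and 2 higher in DLD-1, and 14 lower and 3 higher under the LoVo label. CDKN1A encodes p21, an inhibitor of cyclin-CDK complexes. It lay at 33.3, 35.2 and 37.4 TPM in untreated DLD-1 LIN28B cells and at 5.48, 7.62 and 6.46 TPM with alpelisib. Under the LoVo label it went from 65.6, 63.02 and 66.8 TPM to 27.9, 28.1 and 22.9 TPM. The groups did not overlap, and by limma CDKN1A fell in DLD-1 (-2.28 ± 0.13, adjusted p = 1.86e-08) and less under the LoVo label (-1.28 ± 0.13, adjusted p = 2.5e-06), the difference being called (1.00 ± 0.18, adjusted p = 0.0148). RB1, the retinoblastoma gene, fell by limma in DLD-1 (-0.68 ± 0.11, adjusted p = 0.000426) and under the LoVo label (-0.97 ± 0.11, adjusted p = 8.33e-06). CDK2, the partner of cyclin E, fell likewise (-0.69 ± 0.15, adjusted p = 0.00251 and -0.99 ± 0.15, adjusted p = 8.83e-05 by limma). CCND1, which encodes cyclin D1, fell in DLD-1 and under the LoVo label as well (-0.45 ± 0.13, adjusted p = 0.0147 and -0.61 ± 0.13, adjusted p = 0.00149 by limma). MYC rose under the LoVo label (0.58 ± 0.18, adjusted p = 0.0189 by limma) and had 0.35 ± 0.18 in DLD-1 (adjusted p = 0.159). CDK4 fell under the LoVo label and CDKN1B, which encodes p27, in DLD-1 (-0.75 and -0.43, limma adjusted p = 0.0136 and 0.014). CDKN2A passed in neither.

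Mitosis genes, which act later in the cycle, moved with alpelisib under both labels. In DLD-1 29 of 32 fell, against 21.9% of all genes, and under the LoVo label all 32 fell, against 24.6%. The medians were -0.75 and -1.02, and on the median-of-ratios scale 25 and 30 of these genes were lower. Their summed TPM was 2300.0 to 2525 in untreated DLD-1 LIN28B cells and 1409 to 1504 with alpelisib, and 1809 to 1983 and then 818 to 1011 under the LoVo label. CDC20, which activates the anaphase-promoting complex, fell by limma in DLD-1 (-0.86 ± 0.081, adjusted p = 2.78e-06) and under the LoVo label (-1.13 ± 0.081, adjusted p = 8.35e-08). MKI67, the proliferation marker Ki-67, fell in both, with log2 changes of -1.10 in DLD-1 and -1.35 under the LoVo label (limma adjusted p = 3.03e-05 and 1.57e-06). None of the 32 passed the test of the difference between the labels, 8 being lower and none higher at an unadjusted limma p under 0.05. Over all 18537 genes 913 were lower and 1394 higher at that unadjusted p. In DLD-1 with alpelisib, 20.4% of the replication genes and 90.6% of the mitosis genes were called lower, against 21.9% of all genes. With LIN28B 9 of the 32 mitosis genes rose in DLD-1 and all 32 under the LoVo label, against 1.21% and 40.3% of all genes; on the median-of-ratios scale the counts were 16 and 27.

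The promoter letters printed above were set beside the changes as a description. In DLD-1 the 22 members with E2F letters had a median alpelisib change of -0.06 (3 called lower and POLE higher), and the 19 matched members without them a median of -0.31 (6 called lower). Of all genes, 21.9% fell and 9.05% rose there. Under the LoVo label the medians were -0.59 and -0.73, with 18 of the 22 and 18 of the 19 called lower, against 24.6% of all genes. Alpelisib-treated DLD-1 LIN28B cells against EV had 12 higher and none lower among members with the letters, and 3 higher and 2 lower among those without, where 9.71% of all genes were higher and 20.2% lower. The same comparison under the LoVo label had 8 higher and 1 lower both among the 22 and among the 19. Of all genes 32.2% were higher there and 14.7% lower. For LIN28B against EV the medians were 0.44 and 0.42 in DLD-1 and 0.76 and 0.98 under the LoVo label. CCAAT, the letters of the factor NF-Y, stood in 56.1% of the members' promoters, against 35.7% of all promoters and 36.4% of those of tested genes. The letters TTTGAA or TTCGAA, both searched like CCAAT on either strand and known from promoters of late cell cycle genes, stood in 4.88% of members' promoters, against 16.6% and 11.3%.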

How the data were processed

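Polyadenylated RNA was sequenced from 18 libraries in 6 groups of 3. The authors deposited 1 table of TPM values per Ensembl gene; per the submitters' processing notes the build was hg38 and the tools were STAR 2.7.10, Picard, HTSeq and DESeq2, whose order, annotation and strand setting are not given in the sources used here. Symbols were found for 61757 of 61806 genes. TPM keeps no depth, so no counting error can be given. TPM divides by a library's total, so a large share of mitochondrial transcripts lowers every other gene.

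Genes with TPM of at least 1 in at least 3 of 18 libraries were tested (18537) with limma 3.58.1 (R 4.3.3) after a log2(TPM + 1) transformation, as 1 model of 6 groups with no block and a mean-variance trend (12 residual and 3.98 prior degrees of freedom), two-sided, with Benjamini-Hochberg adjustment over all genes of a comparison and a threshold of 0.05. The scripts were tested on simulated data. The alternatives were median-of-ratios scaling, rescaling to genes outside the mitochondrial genome, a pseudocount of 0.1, no filter, no trend, a replicate block, a fit of only the groups compared, each library left out, and, added after seeing the data, LoVo EV replicates 1 and 2 left out. Library values were given for a fixed set of members and for the 5 with the smallest p in each comparison. From each other list, the genes named came from up to 4 with the smallest p in a comparison, or from 8 chosen G1 regulators. Of these, CDKN1A has library values and CDKN2A group means, and the others named have log2 changes. The values of 1 gene from these other lists are not reported here. Members and lists were chosen with earlier results of these data known. Promoters are from RefSeq.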

Additional observations from a re-analysis of the deposited data

Results flagged for a closer look

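The alpelisib effect on PCNA, the sliding clamp, differed between the line labels by a test of the difference itself: -0.72 on the log2 scale, LoVo label minus DLD-1 (95% interval -0.99 to -0.45, limma adjusted p = 0.0119). With a replicate block it did not pass (limma adjusted p = 0.0824). All 3 alpelisib libraries under the LoVo label lay below all 3 untreated ones, and in DLD-1 the ranges overlapped.

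The same test flagged TIMELESS, the fork protection gene, at -0.70 (95% interval -0.98 to -0.42, limma adjusted p = 0.0181). It did not pass with a replicate block either (limma adjusted p = 0.114). All 3 alpelisib libraries lay below all 3 untreated ones under each label. LIN28B was at 146 to 160 TPM with alpelisib under the LoVo label and at 139 to 149.7 TPM in DLD-1, after 674 to 706 and 408 to 493 TPM without it, and its part in either result was not tested.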

How the results depend on the processing

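Over all 9 comparisons and all alternatives, the members' log2 changes kept their direction and their side of the threshold in 10673 cases, passed it only in the alternative in 138 and lost it in 452. In 198 a change that passed in neither fit switched sign, 34 of them with median-of-ratios scaling (for alpelisib in DLD-1 these were CDC25A, CCNE2, MCM3, E2F2, E2F8, POLE2 and POLD1). In 5 a change called in at least 1 of the fits reversed. All 5 reversals came with median-of-ratios scaling. For LIN28B against EV under the LoVo label they were MCM7 (-0.35, limma adjusted p = 0.00121) and POLE (-0.14, adjusted p = 0.284). For LoVo EV against DLD-1 EV they were GINS2 (0.32, limma adjusted p = 0.0161), POLD1 (0.36, adjusted p = 0.00194) and LIG1 (0.06, adjusted p = 0.556).

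The count of members called moved by more than 1.5 times as follows, with the cause not tested. For LIN28B in DLD-1 (13) it was 6 without the filter, 3 with a replicate block and 3 with only the groups compared. For alpelisib in DLD-1 (11) it was 17 with only the groups compared. For the difference of the alpelisib effect (2) it was 8 with median-of-ratios scaling and 5 with rescaling outside the mitochondrial genome. It was 0 with a replicate block (PCNA and TIMELESS lost their calls), where 23 had an unadjusted limma p under 0.05. For alpelisib-treated cells against EV under the LoVo label (23) it was 14 with either rescaling, 7 without LoVo EV replicates 1 and 2 and 10 with only the groups compared. For LoVo EV against DLD-1 EV (34) it was 20 without LoVo EV replicates 1 and 2. For the untreated LIN28B cells of the 2 labels (3) it was 1 without the filter and 0 with a replicate block, where 5 had an unadjusted limma p under 0.05.

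With 1 library left out in turn, the count ranged from 4 to 19 for LIN28B in DLD-1, 41 to 44 for LIN28B under the LoVo label, 8 to 16 for alpelisib in DLD-1, 33 to 41 for alpelisib under the LoVo label and 1 to 3 for the difference. It ranged from 13 to 18 for treated cells against EV in DLD-1, 14 to 26 under the LoVo label, 29 to 36 for the EV cells and 0 to 4 for the untreated LIN28B cells. That last count was 0 without LoVo-labelled LIN28B replicate 2 or DLD-1 LIN28B replicate 1.

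Replicate numbers are shared between groups, but same-numbered libraries did not deviate together: the correlation of their deviations from the group means was -0.302 to 0.0402 under the LoVo label (0 of 9 pairs over 0.1) and -0.0797 to 0.119 in DLD-1 (1 of 9). For pairs with different numbers it was -0.175 to 0.236 under the LoVo label (6 of 18 over 0.1) and -0.141 to 0.141 in DLD-1 (1 of 18). The main fit has no block because the labels state no shared culture or day behind a number. The replicate block stands as an alternative. Depth is unknown, so limits set by low counts cannot be given, and with 3 libraries a group the spread rests on the shared fit.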
